A study of Mus musculus with 12 samples.

Results

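The Cyp3a genes of the mouse encode cytochrome P450 enzymes of subfamily 3A, and 8 of them were followed here across the livers of 12 mice: Cyp3a11, Cyp3a13, Cyp3a16, Cyp3a25, Cyp3a41a, Cyp3a41b, Cyp3a44 and Cyp3a59. The genes were taken by symbol from tables of raw counts that list 23420 gene symbols, one table for each sex, and all 8 were found in both. Livers were collected at ZT10, which is 10 hours after lights on, from mice about 20 weeks of age on a C57BL/6 strain background, kept on normal chow under a cycle of light and dark. There were 3 wild type females (WTF), 3 Siah2-/- females (KOF), 3 wild type males (WTM) and 3 Siah2-/- males (KOM), and the mice are named by their numbers. Siah2 encodes an E3 ubiquitin ligase, and the study asked whether its loss changed liver transcripts in each sex. Wild type and Siah2-/- mice came from related homozygous lines bred from intercrossed heterozygotes, and Siah2-/- is a genotype of the whole animal, not of the liver alone. Libraries were made by the Lexogen QuantSeq method, which takes reads from the 3′ end of a polyadenylated transcript, so the number of reads does not scale with transcript length and levels of different genes can be compared in CPM (counts scaled by library total). The labels speak of RNA pooled from 3 mice, whereas the study describes individual livers and each sample carries a mouse number, so each library was treated as 1 mouse.

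CYP3A enzymes are heme proteins of the endoplasmic reticulum. They oxidize steroid hormones, bile acids and a large share of drugs, with electrons supplied by the P450 oxidoreductase Por. In hepatocytes, ligand-activated nuclear receptors, above all PXR (Nr1i2) and CAR (Nr1i3), switch Cyp3a11 on, and HNF4A keeps its basal transcription. Cyp3a11 is the main form of adult mouse liver, Cyp3a13 is made in intestine as well as liver, Cyp3a16 is known as a fetal and neonatal form, and Cyp3a41 and Cyp3a44 are known as forms of the female liver under growth hormone control.

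Of the 8 genes, 7 lie side by side on chromosome 5 (GRCm38.p6), in a cluster of 679 kb from 145436309 to 146114978 that holds no other kind of protein-coding gene in RefSeq. Cyp3a13 (137892933 to 137925610) lies 7.51 Mb away on the same chromosome. The 300 bases around the start site, from 250 before it to 50 after it, were available in RefSeq for all 8 genes. The promoters below are shown because they hold an adult major form, 2 forms known from female liver and the gene outside the cluster. The Cyp3a13 window lies within the annotated span of its gene, at the start site that the sequence table uses. Capitals mark motifs found by exact match on either strand. CAAAGTCCA is an HNF4-type element, the kind of site at which HNF4A keeps liver genes active. The core that factors of the ONECUT family bind was searched for as ATCAAT. Nuclear receptors such as PXR bind as dimers to pairs of half-sites, searched for here as AGGTCA. The run called the TATA box, which positions the start of transcription, was searched for as ATATAA anywhere in the window, so a match need not be a TATA box. Copies of ATATAA that read in opposite directions and overlap appear as a single longer run of capitals.
Cyp3a11, chr5:145879805-145880104, minus strand: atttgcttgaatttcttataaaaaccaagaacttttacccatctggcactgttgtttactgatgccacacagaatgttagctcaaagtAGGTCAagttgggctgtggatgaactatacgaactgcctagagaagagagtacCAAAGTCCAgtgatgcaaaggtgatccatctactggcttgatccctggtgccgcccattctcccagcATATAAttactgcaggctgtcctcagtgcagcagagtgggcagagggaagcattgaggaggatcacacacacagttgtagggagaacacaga
Cyp3a41a, chr5:145720087-145720386, minus strand: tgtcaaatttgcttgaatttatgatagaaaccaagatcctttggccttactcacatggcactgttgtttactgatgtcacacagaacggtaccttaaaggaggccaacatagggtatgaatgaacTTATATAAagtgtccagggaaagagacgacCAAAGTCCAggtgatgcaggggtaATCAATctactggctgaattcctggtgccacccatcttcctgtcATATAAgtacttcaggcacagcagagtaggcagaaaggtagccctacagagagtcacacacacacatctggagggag
Cyp3a44, chr5:145805825-145806124, minus strand: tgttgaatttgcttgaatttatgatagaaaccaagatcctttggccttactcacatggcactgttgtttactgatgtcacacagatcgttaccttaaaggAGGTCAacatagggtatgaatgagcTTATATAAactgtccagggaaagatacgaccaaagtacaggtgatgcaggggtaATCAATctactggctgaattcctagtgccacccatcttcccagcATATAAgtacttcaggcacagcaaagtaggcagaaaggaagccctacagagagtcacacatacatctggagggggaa
Cyp3a13, chr5:137921570-137921869, minus strand: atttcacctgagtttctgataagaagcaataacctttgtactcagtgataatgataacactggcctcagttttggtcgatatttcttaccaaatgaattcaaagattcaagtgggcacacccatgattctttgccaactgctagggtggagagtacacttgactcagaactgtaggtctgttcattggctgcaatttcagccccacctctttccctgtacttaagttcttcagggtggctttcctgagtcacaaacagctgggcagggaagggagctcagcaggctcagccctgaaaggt

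CAAAGTCCA was present in the promoters of Cyp3a11, Cyp3a16, Cyp3a41a and Cyp3a41b, and in 0.477% of 27025 mouse promoters of the same length. It lay 109 to 101 bases before the start site in Cyp3a11 and 95 to 87 bases before it in Cyp3a41a. ATCAAT was present in Cyp3a16, Cyp3a41a, Cyp3a41b and Cyp3a44, against 7.76% of all promoters, and was not found in the window of Cyp3a11. AGGTCA was found in Cyp3a11, Cyp3a25, Cyp3a44 and Cyp3a59 (16% of all promoters), and ATATAA in 7 of the 8, Cyp3a13 being the exception (10.2%). The palindrome TTCNNNGAA, the kind of site that STAT5 binds, was in none of the 8 windows and in 8.47% of all promoters. Aligned end to end, the Cyp3a44 promoter was 93.0% identical to that of Cyp3a41a and 93.4% identical to that of Cyp3a16, and the promoters of Cyp3a25 and Cyp3a59 were 95.7% identical. The Cyp3a11 promoter shared 70.4% of its bases with that of Cyp3a41a, and the Cyp3a13 promoter between 48.4% and 54.4% with those of the other 7, close to the 52.9% that Cyp3a11 and Cyp3a25 shared. These matches describe the letters of the window and were not tested for function.

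Reads from a 3′ kit can be told apart only where the 3′ ends differ, so the ends of the 8 transcripts were compared first. The coding parts of Cyp3a41a and Cyp3a41b were 99.9% identical and their last 300 bases were the same throughout, so that 100% of the 50-base windows in the end of either gene were also found in another gene. Over 22216 genes, 3.63% shared more than 90% of such windows and 84.5% shared none. The other near-identical pair, Cyp3a25 and Cyp3a59, had 97.5% identical coding parts and 94.4% identical ends, yet shared no 50-base window. Cyp3a44 shared 7.17% of its windows with Cyp3a41a, Cyp3a16 shared 4.78% with Cyp3a11, and Cyp3a11, Cyp3a13, Cyp3a25 and Cyp3a59 shared none. In the genome sequence, however, 23.1% of the Cyp3a44 windows occurred more than once on chromosome 5 of an older build (NCBIM37), and 76.9% occurred once. The transcripts came from an older annotation (GENCODE M1) than the build used for the counts (mm10).

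Cyp3a41a was listed with 1 read, in WTF 1089, and Cyp3a41b with 0 reads in all 12 libraries. The sources used here do not give how reads that match several places were treated. Of the 357 genes in the tables whose whole end was shared with another gene, 269 (75.4%) were at 0 in all 12 libraries, against 2536 of 17290 (14.7%) with no shared window. The alpha hemoglobin genes Hba-a1 and Hba-a2, which shared 80.1% and 73.7% of their windows, had 0 reads each, while the beta hemoglobin gene Beta-s had 206 to 2118 reads per library. Reads of Cyp3a41a and Cyp3a41b cannot be told apart by their ends, so their counts are uncertain and a 0 does not measure absence. Cyp3a16, whose end was mostly its own, had 2 reads, both in KOF 1104. Its 0 reads in the other groups allow up to 0.325 CPM in WTF, 0.460 CPM in WTM and 0.333 CPM in KOM, taking 3 reads over the group as the limit and covering counting error only. The annotated transcript has a 3′ untranslated part of 132 bases, and the limits hold only if transcripts of Cyp3a16 end there.

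**Figure D1:**
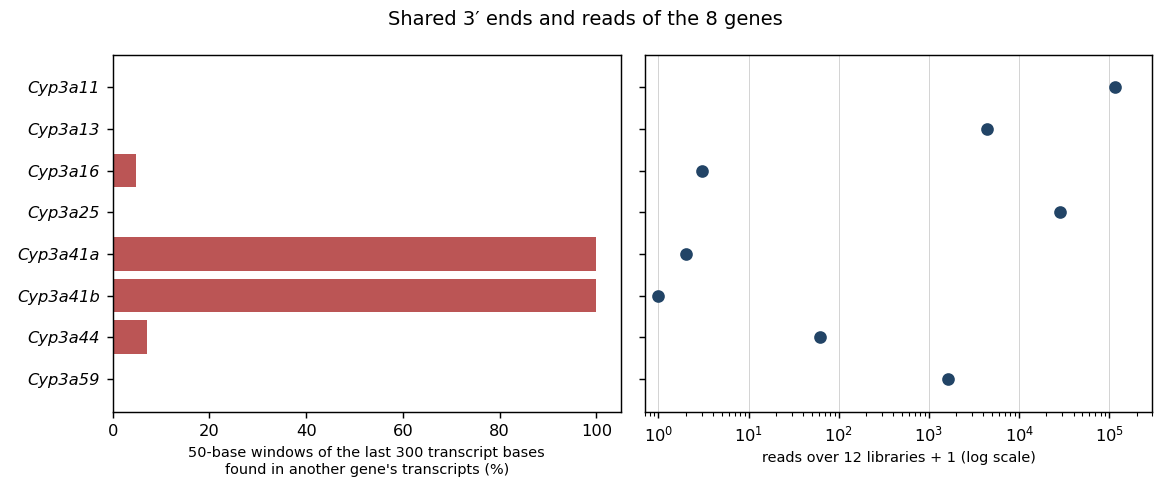
Left, the share (%) of 50-base windows in the last 300 transcript bases of each gene that also occur in transcripts of another gene. Right, the reads of each gene summed over 12 libraries plus 1, on a log axis: Cyp3a41a and Cyp3a41b, at 100% shared, had 1 and 0 reads.

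Depth was between 1293688 and 4056144 counted reads per library. The family took 0.149% to 0.694% of them, and the lowest share was in WTF 1091, a library that stood apart: the chi-square per degree of freedom between its counts and those of the other WTF mice was 47.9 and 51.0, against 7.45 to 25.1 for every other pair of the same group. Hepatocyte markers such as Alb were abundant in every library (51864 to 97094 CPM over 9 markers found). Siah2 itself was read at 11.5 to 17.0 CPM in WTF and 9.63 to 12.5 CPM in KOF, and at 16.8 to 27.1 CPM in WTM and 9.42 to 17.4 CPM in KOM. The log2 fold change of Siah2 was -0.34 (SE 0.30, adjusted p = 0.641, edgeR) in females and -0.67 (SE 0.29, adjusted p = 0.9999, edgeR) in males. The sources used here do not give which part of Siah2 was deleted, so reads from its 3′ end do not check the labels.

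Cyp3a11, the main drug-oxidizing form, had the highest counted level of the members in each of the 12 livers. It was ahead of Cyp3a25, Cyp3a13 and Cyp3a59 in that order without exception. Cyp3a41a and Cyp3a41b, whose counts are uncertain, cannot be placed in this order. By mean level it ranked 23 of the 23420 symbols. Cyp3a11 stood at 2183, 3414 and 1078 CPM in WTF 1089, 1090 and 1091, and at 3050, 2241 and 5596 CPM in KOF 1070, 1104 and 1105. In males it stood at 4337, 5284 and 4859 CPM in WTM 1055, 1086 and 1087, and at 4332, 3413 and 4186 CPM in KOM 1075, 1076 and 1081. The group means were 2225 ± 1168, 3629 ± 1751, 4827 ± 474 and 3977 ± 494 CPM (SD, n = 3) in WTF, KOF, WTM and KOM. Each WTF mouse lay below each WTM mouse, each KOM mouse lay below each WTM mouse, and the KOF mice overlapped with every other group.

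Cyp3a25, another steroid-oxidizing form of liver and intestine, ranked 143 by mean level. It was at 611, 907 and 420 CPM in WTF, 837, 608 and 1186 CPM in KOF, 902, 875 and 888 CPM in WTM and 1059, 943 and 1163 CPM in KOM, in the order of mice given above. The 3 WTM livers lay close together (888 ± 13.7 CPM, SD), and each KOM liver lay above all of them. The females spread more widely, and WTF and KOF overlapped.

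Cyp3a13, the gene outside the cluster, was at 223, 225 and 122 CPM in WTF, 154, 135 and 126 CPM in KOF, 102, 101 and 97.8 CPM in WTM and 91.2, 110 and 88.2 CPM in KOM. Each female liver was above each male liver. WTF 1091 lay apart from its group and just below the lowest KOF mouse. The means were 190 ± 59.0, 138 ± 14.2, 100 ± 2.34 and 96.6 ± 11.9 CPM (SD, n = 3).

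Cyp3a59, the near-copy of Cyp3a25, was at 35.4, 45.9 and 34.1 CPM in WTF, 72.8, 47.1 and 68.6 CPM in KOF, 52.8, 35.7 and 34.7 CPM in WTM and 51.3, 37.8 and 65.1 CPM in KOM. The KOF mice lay above all WTF mice, while the males overlapped. Cyp3a25 had between 11.5 and 25.6 reads for each read of Cyp3a59.

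Cyp3a44, known from female liver, was read in all 6 females and in none of the 6 males. The WTF libraries held 13, 11 and 18 reads (4.69, 3.30 and 5.73 CPM), and the KOF libraries 8, 9 and 2 reads (2.16, 3.31 and 1.20 CPM). WTF 1091, the lowest liver for Cyp3a11, Cyp3a25, Cyp3a13 and Cyp3a59 among WTF, was the highest for Cyp3a44. Taking 3 reads over the male group as the limit, the pooled level of Cyp3a44 in WTF was 9.89 times the limit in WTM. In KOF it was 7.07 times the limit in KOM. These values take the female reads as exact, without their counting error or the spread between females, so the true folds may be smaller. At 42 reads in WTF and 19 in KOF it was the least abundant member that could be followed.

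**Figure D2:**
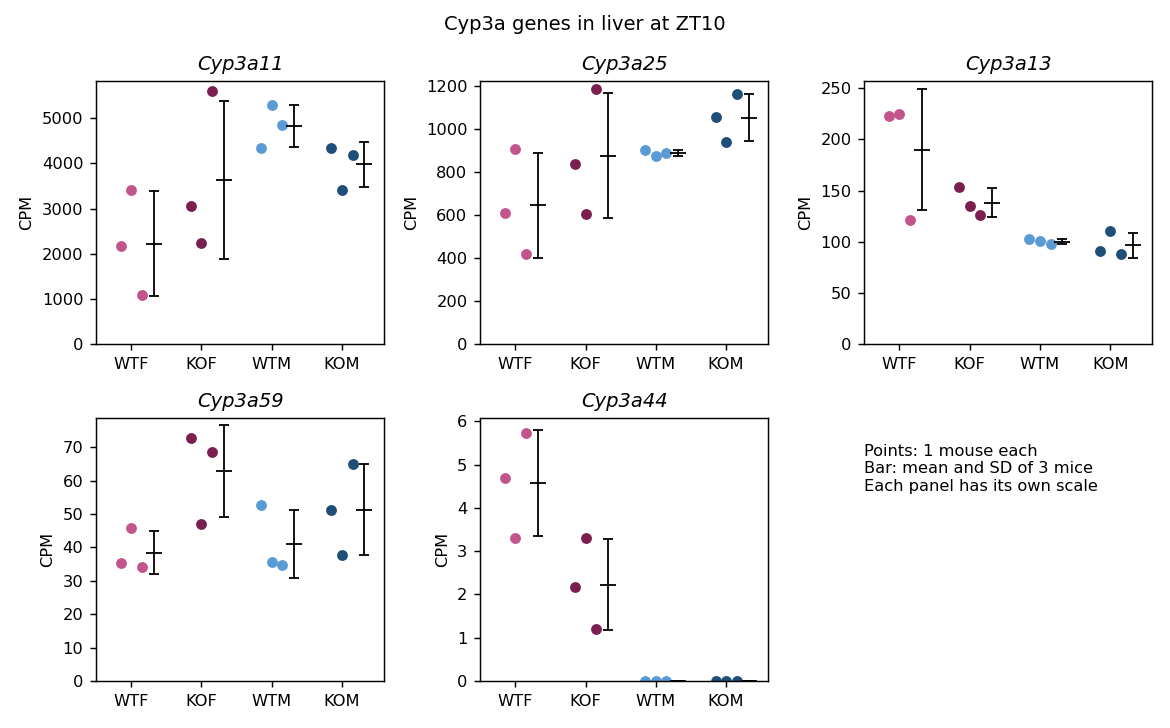
Levels (CPM) of 5 Cyp3a genes in WTF, KOF, WTM and KOM, with 1 point per mouse and the mean and SD of 3 mice beside them, each panel on its own linear scale from 0. Cyp3a13 is higher in each female than in each male, Cyp3a44 is at 0 in each male, and Cyp3a11 in WTF lies below WTM.

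The sexes were compared with edgeR in 1 fit of the 12 mice. Sex and table go together, 1 table for each sex, so a difference between tables and a difference between sexes cannot be told apart. Of the 8 genes, 4 passed the filter on low counts (Cyp3a11, Cyp3a13, Cyp3a25 and Cyp3a59). In wild type mice 1 of these 4 was called, Cyp3a13, against 5.15% of the 9806 genes tested. It was higher in females by 0.92 on the log2 scale (SE 0.23, adjusted p = 0.0288, edgeR). DESeq2 called 2 of the 4, Cyp3a13 (adjusted p = 0.00371) and Cyp3a11 (log2 fold change -1.13, adjusted p = 0.0287), against 7.15% of its genes. By edgeR the log2 fold change of Cyp3a11 between WTF and WTM was -1.12 (SE 0.36), with an adjusted p of 0.0887. For Cyp3a25 the log2 fold change was -0.46 (SE 0.27, adjusted p = 0.369, edgeR) and for Cyp3a59 it was -0.07 (SE 0.26, adjusted p = 0.912, edgeR). The groups did not overlap for 2 of the 4, Cyp3a11 and Cyp3a13, and for 22.5% of all genes tested. The median of the 4 was -0.27, against 0.02 over all genes.

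The Cyp3a13 call depended on which mice were in the fit. Without WTF 1091 it was higher in WTF by 1.16 on the log2 scale (adjusted p = 0.000276, edgeR). Without WTM 1055, 1086 or 1087, or WTF 1089 or 1090, the log2 fold change was between 0.79 and 0.94 and the adjusted p between 0.0597 and 0.103, and in a fit of the 6 wild type mice alone it was 0.134 (edgeR). Cyp3a11 passed the threshold in edgeR without WTF 1090 (log2 fold change -1.53, adjusted p = 0.0241).

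In Siah2-/- mice the sex difference of Cyp3a13 had the same direction and a log2 fold change of 0.52 (SE 0.22, adjusted p = 0.226, edgeR), and its groups did not overlap, which held for 29.8% of all genes. No member was called by edgeR or DESeq2, against 3.59% and 5.45% of all genes, and 1 of the 4 (Cyp3a13) had an unadjusted p under 0.05 by edgeR, as did 18.3% of all genes. Cyp3a11 differed between KOF and KOM by -0.13 (SE 0.36, adjusted p = 0.890, edgeR), Cyp3a25 by -0.27 (SE 0.27) and Cyp3a59 by 0.28 (SE 0.25), all on the log2 scale. Cyp3a13 passed the threshold in the fit of the 6 Siah2-/- mice alone (adjusted p = 0.0472, edgeR) and in that of all mice but WTF 1091 (adjusted p = 0.0338, edgeR). The median of the 4 log2 fold changes was 0.08, against 0.00025 over all genes.

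Markers of other cells were summed in the same livers. The summed level of 15 Kupffer and other immune cell markers ran from 523 to 703 CPM in WTF, 103 to 636 CPM in WTM, 380 to 870 CPM in KOF and 115 to 259 CPM in KOM. Of the 11 tested, 4 were called higher in females in each genotype, and S100a8 was at 0 in all males, with 32 reads in WTF and 16 in KOF. Cd3e and Cd79a were also at 0 in all males, but the 1 to 3 reads in each female group were too few to show a difference. The 11 endothelial and stellate cell markers summed to 478 to 579 CPM in WTF and 303 to 445 CPM in WTM, without overlap, and to 394 to 442 CPM in KOF and 334 to 396 CPM in KOM, which overlapped. Of the intestinal markers, Fabp2 was at 53.6 ± 13.5 CPM in WTF and 51.3 ± 5.82 CPM in WTM, and Vil1 was at 0.447 and 0.645 CPM. The part of these cells in the levels of Cyp3a13 was not tested, and in whole liver fewer cells of a type and less RNA per cell cannot be told apart.

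Loss of Siah2 was compared with the wild type within each sex. In females, none of the 5 members tested (Cyp3a44 included) was called by edgeR, where 0% of 9465 genes were called, and 1 of the 5, Cyp3a59, had an unadjusted p under 0.05, as did 15.6% of all genes. DESeq2 called 3.6% of its genes and none of the 4 members to which it gave an adjusted p. In KOF relative to WTF, Cyp3a59 had a log2 fold change of 0.69 (SE 0.26, adjusted p = 0.225, edgeR). Cyp3a11 had one of 0.69 (SE 0.45, adjusted p = 0.506, edgeR) and Cyp3a25 of 0.43 (SE 0.34, adjusted p = 0.601, edgeR). For Cyp3a13 the log2 fold change was -0.47 (SE 0.27, adjusted p = 0.446, edgeR), and for Cyp3a44 -0.98 (SE 0.50, adjusted p = 0.389, edgeR). The groups of 1 of the 5, Cyp3a59, did not overlap, against 23.3% of all genes. The median of the 5, Cyp3a44 included, was 0.43, against -0.03 over all genes.

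One library decided the outcome for Cyp3a13. Without WTF 1091, Cyp3a13 was lower in KOF by a log2 fold change of -0.69 with an adjusted p of 0.0303 (edgeR), the single member called in that fit, in which 9.64% of 9709 genes were called against 0% with the library. Across all the alternatives its log2 fold change ran from -0.69 to -0.34. The log2 fold change of Cyp3a11 was 0.37 without WTF 1091, 0.25 without KOF 1105 and 1.14 without WTF 1090.

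In males, none of the 4 members tested was called by edgeR or DESeq2, against 0% of 8823 genes and 0.037% of 16219 genes, and none of the 4 had an unadjusted p under 0.05, which 4.05% of all genes had by edgeR. In KOM relative to WTM, Cyp3a11 had a log2 fold change of -0.29 (SE 0.15, adjusted p = 0.9999, edgeR). Cyp3a25 had one of 0.24 (SE 0.14), Cyp3a59 of 0.35 (SE 0.24) and Cyp3a13 of -0.07 (SE 0.16). The groups did not overlap for 2 of the 4, with Cyp3a11 lower and Cyp3a25 higher in every KOM liver, whereas 8.87% of all genes did not overlap. The median of the 4 was 0.09, against -0.01 over all genes.

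The difference between the responses of the sexes was tested in the fit of 12 mice. None of the 4 members was called by edgeR (0.255% of all genes) or DESeq2 (3.46%), and none had an unadjusted p under 0.05 by edgeR. For Cyp3a11 the response in females minus that in males was 0.98 on the log2 scale (SE 0.51, adjusted p = 0.410, edgeR), with values between 0.53 and 1.40 across the alternatives. The difference was -0.40 (SE 0.32) for Cyp3a13, 0.36 (SE 0.36) for Cyp3a59 and 0.19 (SE 0.38) for Cyp3a25. The median of the 4 was 0.27, against -0.02 over all genes.

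**Figure D3:**
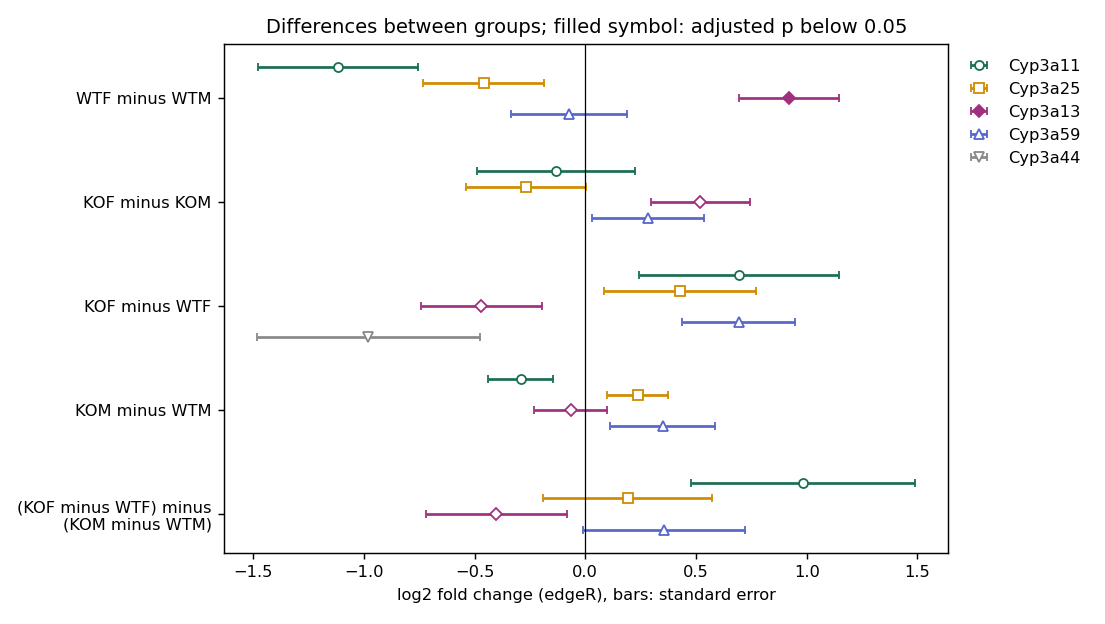
Log2 fold changes (edgeR) of the tested members in 5 comparisons, with bars for the standard error and filled symbols where the adjusted p was below 0.05. The 1 filled symbol is Cyp3a13 in WTF minus WTM, at 0.92, and the bars of the other values often cross or approach 0.

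Markers of the liver zones were summed in the same way. Cyp3a11 is known as a gene of pericentral hepatocytes, and the summed level of 11 pericentral markers (Glul, Cyp2e1 and others) was 8482 to 8877 CPM in WTF and 12619 to 13426 CPM in KOF, with no overlap. Most of that difference lay in Cyp2e1 (3542 ± 402 CPM in WTF and 7145 ± 568 CPM in KOF, SD, n = 3), while 6 of the 10 tested had a higher and 4 a lower value in KOF. In males the sum was 8440 to 10419 CPM in WTM and 8720 to 12082 CPM in KOM. The 11 periportal markers summed to 4795 to 12970 CPM in WTF, with the lowest value in WTF 1091, and to 13453 to 20651 CPM in KOF. Here Pck1 (4229 ± 3277 CPM in WTF and 12824 ± 3909 CPM in KOF) carried the sum, whereas Cyp2f2, Hsd17b13, Gls2 and Aldh1b1 had lower means in KOF. Of the 10 tested, 5 had higher and 5 lower values, with a median log2 fold change of -0.02 against -0.03 over all genes. No gene of either list was called by edgeR between KOF and WTF, with 2 of 10 pericentral and 4 of 10 periportal markers at an unadjusted p under 0.05, as were 15.6% of all genes. The part of zonation in the Cyp3a levels was not tested.

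Ratios of 2 members within a liver do not depend on how libraries were scaled, and they were followed next. Cyp3a11 made up 82.3% ± 1.79 of the family's reads in WTM, 76.7% ± 1.37 in KOM, 70.2% ± 4.77 in WTF and 76.1% ± 3.595 in KOF (SD, n = 3). Cyp3a13 made up 6.51% ± 1.40 in WTF, 3.33% ± 1.37 in KOF, 1.72% ± 0.159 in WTM and 1.90% ± 0.475 in KOM, and these shares leave out any reads of Cyp3a41a and Cyp3a41b that were not counted.

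There were 4.81 to 6.04 reads of Cyp3a11 for each read of Cyp3a25 in WTM, 3.599 to 4.09 in KOM, 2.57 to 3.76 in WTF and 3.64 to 4.72 in KOF. The WTM livers had the highest ratio and overlapped with no other group. For Cyp3a11 against Cyp3a13 the ratio was 8.86 to 15.2 in WTF, 16.6 to 44.5 in KOF, 42.3 to 52.6 in WTM and 31.0 to 47.5 in KOM. Here it was WTF that overlapped with no other group, including its mouse 1091, which fell below both other WTF mice at 8.86. Cyp3a25 against Cyp3a13 gave 2.74 to 4.04 in WTF, 4.51 to 9.43 in KOF, 8.70 to 9.08 in WTM and 8.55 to 13.2 in KOM.

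The ratio of Cyp3a13 to Cyp3a59 was 3.57 to 6.31 in WTF and 1.83 to 2.86 in KOF, again without overlap, while it was 1.94 to 2.82 in WTM and 1.36 to 2.92 in KOM. WTF 1091, which lay near KOF in CPM of Cyp3a13, lay on the side of the other WTF livers in each of these 3 ratios that involve Cyp3a13. These 3 share the reads of Cyp3a13 and are not independent. The ratio of Cyp3a25 to Cyp3a59 was 12.3 to 19.8 in WTF, 11.5 to 17.3 in KOF, 17.1 to 25.6 in WTM and 17.9 to 25.0 in KOM. There KOF and KOM did not overlap, while every other pair of groups did. No test of the ratios was made, since 3 mice against 3 cannot give an exact permutation p below 0.1, and 5 ratios were computed. How often ratios of other genes separate the groups was not computed. For single genes, 23.3% did not overlap between KOF and WTF, 22.5% between WTF and WTM and 29.8% between KOF and KOM.

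**Figure D4:**
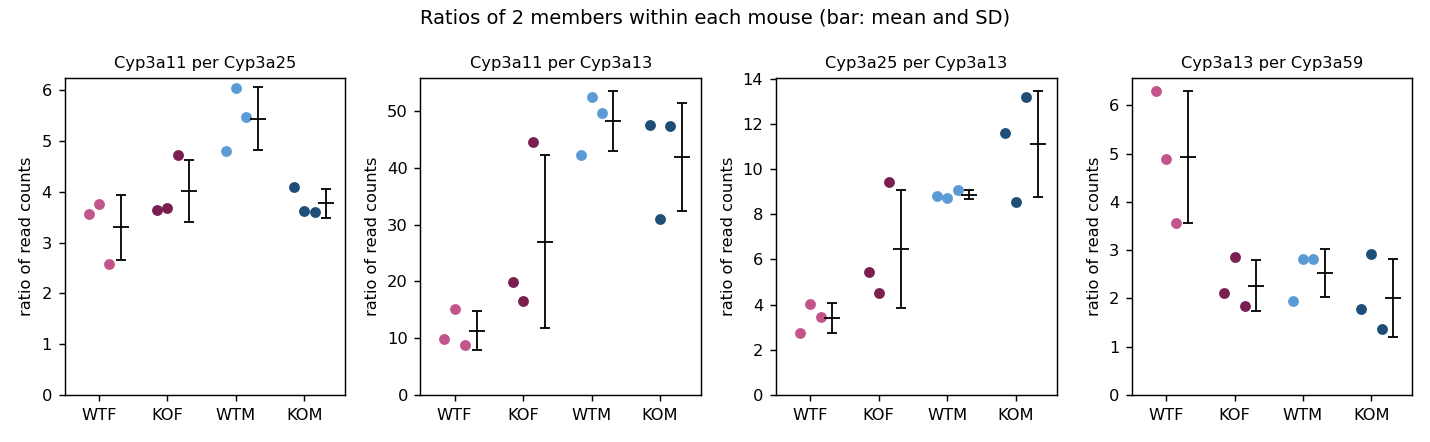
Ratio of read counts of 2 members in each mouse, in WTF, KOF, WTM and KOM, with the mean and SD of 3 mice. WTM stands above the other groups for Cyp3a11 per Cyp3a25, and WTF stands below them for Cyp3a11 per Cyp3a13 and above them for Cyp3a13 per Cyp3a59.

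Transcripts of the receptors that switch Cyp3a11 on were measured in the same livers. Nr1i2 encodes PXR, and it was at 94.2, 170 and 140 CPM in WTF, 63.05, 77.0 and 56.6 CPM in KOF, 79.5, 76.9 and 50.4 CPM in WTM and 99.5, 69.0 and 89.7 CPM in KOM. The WTF livers lay above all KOF and WTM livers. Nr1i2 was higher in WTF than in WTM by 0.98 on the log2 scale (SE 0.25, adjusted p = 0.0361, edgeR). Between KOF and WTF its log2 fold change was -1.05 (SE 0.27), and the adjusted p was 0.121 in edgeR and 0.0326 in DESeq2. The response in females minus that in males was -1.37 (SE 0.36), and the adjusted p was 0.104 in edgeR and 0.0196 in DESeq2.

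Nr1i3, which encodes CAR, was scarce at 8.48 ± 2.41 CPM in WTF, 12.8 ± 3.75 in KOF, 9.03 ± 5.24 in WTM and 7.33 ± 2.32 in KOM. Hnf4a was at 220 ± 85.9, 203 ± 37.9, 254 ± 67.7 and 314 ± 36.2 CPM in the same order of groups (SD, n = 3). Neither was called in any of the 5 comparisons by edgeR or DESeq2. Of the 17 regulators tested of 19 listed, Nr1i2 was the 1 called between wild type sexes, and Foxa3, a liver pioneer factor, was the 1 called between Siah2-/- sexes. Over all genes, edgeR called 5.15% between wild type sexes and 3.59% between Siah2-/- sexes, so 1 of 17 is near the share of any list. Foxa3 was at 168 ± 42.0 CPM in WTF, 54.8 ± 15.8 in KOF, 157 ± 28.7 in WTM and 177 ± 45.9 in KOM, and lower in KOF than in KOM by a log2 fold change of -1.68 (SE 0.27, adjusted p = 0.00173, edgeR). Between KOF and WTF Foxa3 had a log2 fold change of -1.62 (SE 0.29), and the adjusted p was 0.0793 in edgeR and 0.000299 in DESeq2.

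Por, the electron donor of all microsomal P450 enzymes, was at 353 ± 187 CPM in WTF, 437 ± 82.0 in KOF, 245 ± 102 in WTM and 272 ± 17.9 in KOM, and was called in no comparison by edgeR. Alas1, the rate-limiting enzyme of heme synthesis, was at 80.5, 118 and 76.1 CPM in WTF and 130, 194 and 240 CPM in KOF, without overlap. Its log2 fold change between KOF and WTF was 1.02 (SE 0.29), and the adjusted p was 0.142 in edgeR and 0.0373 in DESeq2. Pgrmc1, a heme-binding partner of P450 enzymes, was lower in WTF than in WTM by a log2 fold change of -0.84 (SE 0.19, adjusted p = 0.0174, edgeR). Cyb5r3, a cytochrome b5 reductase, was lower in KOF than in KOM by a log2 fold change of -0.69 (SE 0.18, adjusted p = 0.0457, edgeR). Those were the only calls by edgeR in the 5 comparisons among the 11 genes listed for electrons and heme. Among all genes, 5.15% were called between wild type sexes and 3.59% between Siah2-/- sexes.

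**Figure D5:**
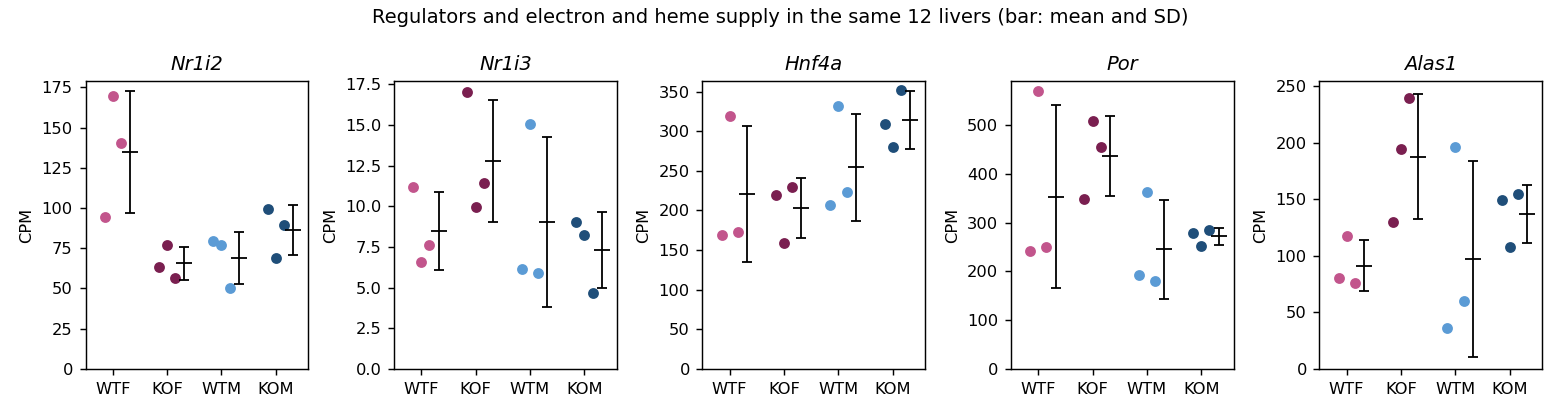
Levels (CPM) of Nr1i2 (PXR), Nr1i3 (CAR), Hnf4a, Por and Alas1 in WTF, KOF, WTM and KOM, with 1 point per mouse and the mean and SD of 3 mice. Nr1i2 is highest in WTF, where each mouse is above each KOF and WTM mouse, and Alas1 in KOF lies above WTF.

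Other targets of PXR and CAR were compared beside Cyp3a11. Of the 19 tested of 22 listed, 6 were called higher in WTF than in WTM and none lower (edgeR). Over all 9806 genes tested, 5.15% were called in either direction. The median log2 fold change over the 19 was 0.07, against 0.02 over all genes. The 6 were Cyp2b9, Cyp2b10 and Cyp2b13, which encode P450 enzymes of subfamily 2B, the transporters Abcb1a and Slco1a4, and the sulfotransferase Sult2a1. Of these, Cyp2b9, Cyp2b13 and Sult2a1 are also in the list of female-biased liver genes used here, so their calls are not specific to PXR and CAR targets. Cyp2b10 was at 23.9 ± 10.9 CPM in WTF and 6.03 ± 2.77 in WTM, Abcb1a at 12.7 ± 2.11 and 4.13 ± 1.19, and Slco1a4 at 265 ± 74.7 and 107 ± 28.4 (SD, n = 3). Cyp2b9 was at 195 ± 66.9 and 1.18 ± 1.05 CPM. Cyp2b13 (122 ± 46.7 CPM) and Sult2a1 (62.3 ± 82.4 CPM) were at 0 in WTM, as was Cyp3a44. All 6 of these symbols were also called higher in KOF than in KOM, where Aldh1a1, an aldehyde dehydrogenase, was called lower (log2 fold change -0.82, SE 0.19, adjusted p = 0.0242, edgeR). Between KOF and KOM 3.59% of all genes were called. None of the list was called between genotypes in either sex by edgeR, where 0% of all genes were called.

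Growth hormone, through STAT5B, sets the sex differences of many liver P450 genes. Of 11 genes listed for this pathway, Trim24, a transcriptional co-regulator, was called higher in WTF (50.1 ± 20.9 CPM) than in WTM (18.2 ± 1.06 CPM), with a log2 fold change of 1.45 (SE 0.29, adjusted p = 0.00744, edgeR). Cux2, a repressor of male-biased genes, was at 3.11 ± 1.39 CPM in WTF, 4.55 ± 2.69 in KOF, 0.168 ± 0.290 in WTM and 0 in KOM. Trim24 and Cux2 were called higher in KOF than in KOM by edgeR. The share called over all genes was 5.15% between wild type sexes and 3.59% between Siah2-/- sexes. For scale, 11 of 13 genes listed as female-biased were called higher in WTF and 12 of 13 listed as male-biased were called lower, with medians of 7.62 and -4.64 on the log2 scale. These genes were listed for their sex bias and include Xist and Ddx3y, genes of the sex chromosomes. Their calls are therefore no test, and their medians do not stand for sex-differing liver genes in general. The sex difference of Cyp3a13, at 0.92, was small beside these medians.

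The genes with the pattern most like each tested member were sought by the root mean square difference of centred log2 CPM over the 12 mice, among 6717 genes whose mean was 10 CPM or more. The nearest to Cyp3a11 were Spin1 (0.27), Gm608 (0.27) and Bet1 (0.28), and Cyp3a25 came next among the members at place 30 (0.32). The nearest to Cyp3a25 were Tmem106b (0.16), Ctsa (0.16) and Ugt2b34 (0.19), a glucuronosyltransferase. Dcaf13 (0.17), Gls2 (0.19) and Alb (0.19) were nearest to Cyp3a13, and Arl14ep (0.20), Nup62 (0.23) and Rad51d (0.24) to Cyp3a59. Cyp3a59 and its near-copy Cyp3a25 differed by 0.37, and Cyp3a13 and Cyp3a11 by 0.91, the largest distance among the 4. Genes sharing libraries share their scaling, and no test was made of these distances.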

How the data were processed

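Liver RNA of 12 mice was profiled by QuantSeq 3′ sequencing. The authors used Illumina's BaseSpace for trimming, mapping and counting, and deposited raw read counts per gene symbol, not normalized, in 1 table per sex. The submitters' processing notes name STAR, DESeq and mm10. The sources used here do not give annotation or read length.

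CPM used TMM-scaled totals of all 12 libraries. Tests were two-sided quasi-likelihood tests of edgeR 4.0.16 (filterByExpr, TMM; R 4.3.3), adjusted after Benjamini-Hochberg over all genes tested, at a threshold of 0.05. Genotypes were compared within the 6 mice of a sex, and sexes and the difference in response in the 12. DESeq2 1.42.0, RLE scaling, no filter beyond 1 count, other sets of mice, Cyp3a41a and Cyp3a41b summed, and each mouse left out were the alternatives. The scripts were tested on simulated data. Log2 CPM had a prior count of 3.

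The genes and lists were chosen with earlier results of these data known. Named were the 8 members, Siah2, Nr1i2, Nr1i3, Hnf4a, Por, Alas1, each gene of the regulator, heme, target and growth hormone lists called by edgeR, and the 3 nearest genes of each member. Cyp3a13 and Cyp3a11 in single leave-one-out fits and Hba-a1 and Hba-a2 were singled out after their values were seen. Whether replicates share a litter is not known, and p-values set a group difference against the spread between these mice only. Genotype and breeding line go together, so loss of Siah2 and a difference between the lines cannot be told apart.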

Additional observations from a re-analysis of the deposited data

How the results depend on the processing

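Of 297 log2 fold changes of members recomputed under an alternative, 279 kept both their direction and their side of the threshold. This total says little, as nearly all were uncalled in both fits and summing Cyp3a41a and Cyp3a41b could not move the others. Of the rest, 6 turned sign, 6 gained a call and 6 lost it. The sex comparisons of Cyp3a44 are not among the 297, as it did not pass the filter in the main fit. The 6 lost calls were all of Cyp3a13 between wild type sexes, the 1 call of a member in the main fits, which had 17 alternatives. With DESeq2, 301 genes were called between KOF and WTF, 6 between KOM and WTM and 265 for the difference in response, and 2 members between wild type sexes. With no filter beyond 1 count the genes called were 484, 29, 325, 802 (wild type sexes) and 664 (Siah2-/- sexes), with 3 members called between wild type sexes (Cyp3a13, Cyp3a11 and Cyp3a44) and 1 between Siah2-/- sexes (Cyp3a44). A fit of all 12 mice called 427 genes between KOF and WTF, and fits of the 6 mice compared called 130 between wild type sexes and 1044 between Siah2-/- sexes, with 1 member called in each (Cyp3a44 and Cyp3a13).

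With each mouse left out in turn, 0 to 1 members and 0 to 936 genes were called between KOF and WTF, 0 to 3 genes between KOM and WTM, 0 to 522 genes for the difference in response, 0 to 2 members and 201 to 1043 genes between wild type sexes, and 0 to 1 members and 150 to 972 genes between Siah2-/- sexes. The upper ends of 936, 522, 1043 and 972 were reached without WTF 1091. Cyp3a44 passed the filter in some of these fits, only through its reads in females, and is among the members called. Its adjusted p (edgeR) was then 0.0108 to 0.0591 between wild type sexes and 0.0287 to 0.113 between Siah2-/- sexes. The sign turned, with no call on either side, for Cyp3a13 in males (-0.17 to 0.011, positive without KOM 1081), Cyp3a25 in the difference in response (-0.082 to 0.48, negative without WTF 1091 or KOF 1105), Cyp3a59 between wild type sexes (-0.17 to 0.12, positive without WTM 1055 or WTF 1091) and Cyp3a11 between Siah2-/- sexes (-0.59 to 0.12, positive without KOF 1104), all on the log2 scale. The cause of these changes was not tested. Summing Cyp3a41a and Cyp3a41b gave 1 read and changed no call of the members. Mouse numbers are unique, so no mice were paired across groups. Cyp3a44 rests on 42 reads in WTF and 19 in KOF, so counting error limits its values more than those of the other members. Reads from the part of its end that is repeated on chromosome 5 may also have gone uncounted, which was not tested.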
